A study of Mus musculus with 12 samples.

Results

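The genes described here are 40 genes that macrophages, monocytes, neutrophils and dendritic cells use, read in T cell libraries of the mouse spleen. They were listed by symbol, with no measured value in the rule, and all 40 were found among the 35907 genes to which the deposited transcripts could be assigned. They fall into 14 genes of red pulp and other tissue macrophages, 14 genes of monocytes and of myeloid cells in general, 6 genes of neutrophils and their precursors, and 6 genes of dendritic cells.

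Red pulp macrophages of the spleen take up old red blood cells, break down heme and return the iron to the blood. Monocytes and neutrophils arise from granulocyte and monocyte progenitors under transcription factors such as PU.1 and the C/EBP family, and dendritic cells present antigen to T cells. Conventional CD4 T cells are not known for using most of these genes, so their level in a sorted T cell library describes what else the library holds as well as the T cells. In a bulk library, fewer cells of a type and less RNA per cell cannot be told apart.

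The study asked how TCF-1, the transcription factor encoded by Tcf7, shapes T cells in graft-versus-host disease. The 12 libraries form 4 groups of 3. WT Pre-Tx and TCF-1 cKO Pre-Tx are labelled as splenic CD4 T cells of donor mice before transplant, and WT Post-Tx and TCF-1 cKO Post-Tx as CD4 T cells from the spleen at day 7 after transplant. The cKO donors, named TCF-7 cKO in the sample labels, carry flox/flox alleles of the gene and a Cre recombinase driven by the Cd4 promoter on a C57BL/6 background, so the gene is removed in CD4 and CD8 T cells and not in myeloid cells. WT donors carry neither change. All Post-Tx libraries came from lethally irradiated BALB/c hosts given donor CD3 T cells, and per the methods also WT C57BL/6 bone marrow depleted of T cells. The markers named for the Post-Tx sort are H2Kb, CD3, CD4 and CD8. H2Kb is absent from BALB/c host cells, graft marrow cells carry it too, and the T cell gates would remove myeloid cells of either origin. The labels name CD4 T cells while the series' design text names CD8 for the Pre-Tx sort and both kinds for the Post-Tx sort. The design text speaks of 3 different mice per genotype before transplant, and nothing ties a Post-Tx library to one recipient, so p-values measure the spread between these libraries.

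Total counts ranged from 17103415 to 49486745 per library. Tcf7 itself stood at 207, 201 and 124 normalized CPM (counts scaled to the library's size with TMM factors) in WT Pre-Tx and at 189, 148 and 193 in TCF-1 cKO Pre-Tx, and these values overlapped. After transplant it stood at 158, 155 and 182 in WT and at 91.6, 107 and 113 in TCF-1 cKO, without overlap (adjusted p = 0.0669, edgeR quasi-likelihood test). A gene total also counts exons outside the removed part, so it does not check the Pre-Tx labels, and the groups are named by their labels throughout. The 10 B cell markers summed to 8314 to 10200 normalized CPM in WT Pre-Tx and 10080 to 11170 in TCF-1 cKO Pre-Tx, above the 10 T cell markers at 2507 to 3329 and 1349 to 1718. In the Post-Tx libraries the order turned, with B cell sums of 65.95 to 95.2 in WT and 65.8 to 112 in TCF-1 cKO beside T cell sums of 6568 to 9595 and 4247 to 5033. The Pre-Tx libraries therefore went against a label of sorted CD4 T cells, and their member genes are read beside these sums.

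**Figure D1:**
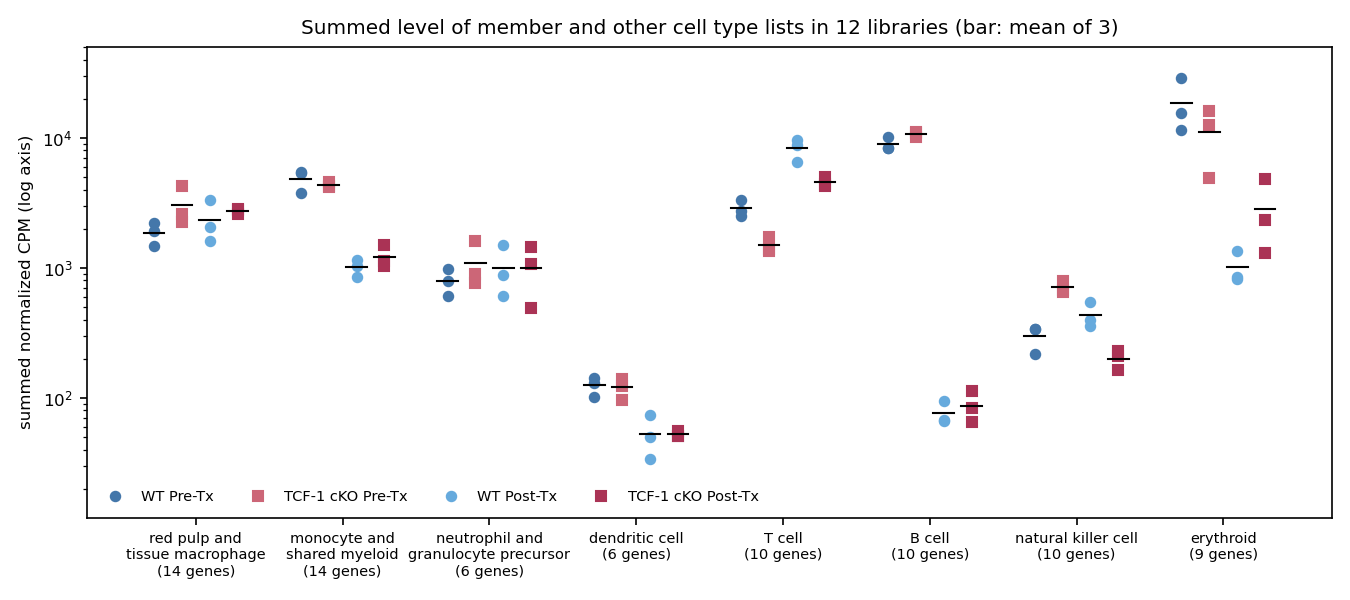
Summed normalized CPM (log axis) of the 4 lists of member genes and of 4 lists of other cell types, 1 point per library and a bar at the mean of 3, in the 4 groups. The monocyte sums of all 6 Post-Tx libraries lie below those of all 6 Pre-Tx libraries, and the B cell sums go from at least 8314 to at most 112.

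The 40 genes together took 0.608% to 0.797% of all counts in WT Pre-Tx, 0.709% to 0.835% in TCF-1 cKO Pre-Tx, 0.385% to 0.469% in WT Post-Tx and 0.579% to 0.686% in TCF-1 cKO Post-Tx. The 14 macrophage genes summed to 1471 to 2212 normalized CPM in WT Pre-Tx, 2242 to 4251 in TCF-1 cKO Pre-Tx, 1608 to 3303 in WT Post-Tx and 2584 to 2834 in TCF-1 cKO Post-Tx. The TCF-1 cKO libraries lay above all WT libraries before transplant in this sum and inside the WT range after it. In TPM the order was the other way: the sums overlapped before transplant, at 855.4 to 1295 in WT and 1278 to 2346 in TCF-1 cKO, and did not after it, at 1124 to 2159 and 2252 to 2592. The monocyte list summed to 3750 to 5488 and 4179 to 4575 before transplant, and to 845 to 1156 and 1039 to 1488 after it, in WT and TCF-1 cKO. All 6 Post-Tx sums of this list lay below all 6 Pre-Tx sums. Lyz2 alone had a mean of 2909 in WT Pre-Tx, where the list's mean was 4856, and of 216 in WT Post-Tx, where it was 1013. In TCF-1 cKO these means were 2053 beside 4337 before transplant and 304 beside 1222 after it. Between the Post-Tx genotypes the monocyte sums overlapped in normalized CPM and not in TPM, where WT was at 1364 to 1493 and TCF-1 cKO at 1837 to 2444. The neutrophil sums overlapped in all 4 groups, at 606 to 980.2 in WT Pre-Tx and 767 to 1602 in TCF-1 cKO Pre-Tx. After transplant these sums were 603 to 1488 in WT and 494 to 1435 in TCF-1 cKO. The dendritic cell genes had the lowest sums, 102 to 142 and 97.2 to 139.7 before and 33.8 to 73.9 and 50.6 to 55.6 after transplant.

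Levels of different genes were compared per length, in TPM (abundance scaled by kallisto for transcript length). The 1135 olfactory receptor genes, which blood cells are not known to use, served as the background level. Of the 40 genes, 37 lay above the median olfactory receptor TPM of the same library in all 12 libraries, and 27 above the 95th percentile in all 12. Among the genes at or below that percentile were Cebpb, the C/EBP beta factor, in 12 libraries, Clec9a, a receptor of cross-presenting dendritic cells, in 10, and Lyz1, a lysozyme, in 9. Xcr1, the XCL1 receptor of the same dendritic cells, was there in 8, and Zbtb46, a factor of conventional dendritic cells, in 7. Dendritic cell members were thus measured close to the background in many libraries. The percentile itself differed between groups, at 2.23 to 5.65 TPM in WT Pre-Tx, 0.903 to 1.55 in TCF-1 cKO Pre-Tx, 1.09 to 3.11 in WT Post-Tx and 4.74 to 11.6 in TCF-1 cKO Post-Tx.

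Before transplant, 7 of the 40 genes were higher in TCF-1 cKO than in WT and none was lower, at an adjusted p under 0.05 in edgeR's quasi-likelihood test over all 17021 genes tested. Over all genes, 8.52% were called higher and 5.65% lower, or 14.2% in either direction. The median log2 fold change was 0.48 over the 40 genes and -0.11 over all genes. The other 33 genes did not pass, with adjusted p from 0.0516 to 0.998, and 9 of them had an unadjusted p under 0.05. Upper-quartile scaling moved the median of all genes to -0.47 and split the member calls into 5 higher and 2 lower. The rises included 4 macrophage genes. Mrc1 is the mannose receptor, Slc40a1 is the iron exporter ferroportin, Vcam1 is an adhesion molecule of red pulp macrophages and endothelium, and Spic is the transcription factor that red pulp macrophages need.

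The stretch before a transcript start is shown for 4 of the 7 genes that rose, to give the sequence beside the values. PU.1, encoded by Spi1, binds purine-rich letters with a GAGGAA core, and the letters GAGGAA or their reverse complement TTCCTC are in capitals. These are 250 bases at a transcript start of each gene, 5′ to 3′ on the gene's strand, from RefSeq on GRCm38.p6. The window of Mrc1 lies at chr2:14229164-14229413 (plus strand) and holds 3 matches, and that of Itgam at chr7:128062390-128062639 (plus strand) holds 2. Those of Cybb, at chrX:9469325-9469574 (minus strand), and Spic, at chr10:88683024-88683273 (minus strand), hold 0. The windows of Cybb and Spic lie inside the genes' GENCODE M21 spans, 9435252 to 9487771 for Cybb and 88674772 to 88685015 for Spic.
Mrc1: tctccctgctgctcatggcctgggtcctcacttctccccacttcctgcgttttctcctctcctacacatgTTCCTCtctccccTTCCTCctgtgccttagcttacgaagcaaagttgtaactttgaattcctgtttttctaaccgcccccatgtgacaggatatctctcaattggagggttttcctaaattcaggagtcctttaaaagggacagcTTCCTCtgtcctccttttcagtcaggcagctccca
Itgam: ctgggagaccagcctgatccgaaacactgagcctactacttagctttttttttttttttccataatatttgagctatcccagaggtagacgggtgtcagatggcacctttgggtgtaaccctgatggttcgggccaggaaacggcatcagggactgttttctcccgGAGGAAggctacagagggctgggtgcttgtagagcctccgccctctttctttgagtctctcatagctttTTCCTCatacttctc
Cybb: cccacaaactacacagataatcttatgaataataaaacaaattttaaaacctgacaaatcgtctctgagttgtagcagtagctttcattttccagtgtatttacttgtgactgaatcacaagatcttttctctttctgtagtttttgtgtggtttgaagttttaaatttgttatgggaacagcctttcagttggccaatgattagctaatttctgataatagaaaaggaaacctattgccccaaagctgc
Spic: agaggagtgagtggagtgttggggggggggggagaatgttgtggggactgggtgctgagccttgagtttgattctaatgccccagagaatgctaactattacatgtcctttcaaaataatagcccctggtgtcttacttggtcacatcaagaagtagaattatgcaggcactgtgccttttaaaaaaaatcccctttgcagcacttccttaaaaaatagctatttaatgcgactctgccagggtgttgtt
The RefSeq table held 32 windows of 30 of the 40 genes. The letters GAGGAA, on either strand, were in 16 of the 32 (50%), from 14 genes, against 23.25% of all 32851 windows. The C/EBP letters TTGCNNAA were in 25% of the member windows and 9.564% of all, and the antioxidant element letters TGANNNNGC in 18.75% and 35.2%. A match is a description of letters and not a site. Among the genes that rose and are not shown, Ngp had a window without the GAGGAA letters, and Vcam1 and Slc40a1 had no window.

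Mrc1 stood at 9.46, 7.38 and 5.49 normalized CPM in WT Pre-Tx and at 64.3, 46.3 and 62.7 in TCF-1 cKO Pre-Tx. Its groups did not overlap, and the log2 difference was 2.93 (standard error 0.35, adjusted p = 0.00418). In TPM the WT Pre-Tx libraries were at 0.801 to 2.23, at or below the olfactory receptor percentile, and in TCF-1 cKO Pre-Tx at 8.18 to 11.9, above it. Slc40a1 stood at 71.5, 102 and 90.4 in WT and at 323, 343 and 608 in TCF-1 cKO, a log2 difference of 2.20 (standard error 0.27, adjusted p = 0.00418). The gene lies at chromosome 1, 45908068 to 45926523, on the minus strand of GRCm38, as GENCODE M21 gives it. Vcam1 stood at 109, 91.7 and 68.4 in WT and at 318, 236 and 451 in TCF-1 cKO, a log2 difference of 1.86 (standard error 0.25, adjusted p = 0.00549). Neither gene overlapped between the groups. Vcam1 is also used by stromal and endothelial cells, whose 10 markers summed to 125 to 201 in WT Pre-Tx and 234 to 285 in TCF-1 cKO Pre-Tx. None of the 8 markers tested passed, and their median log2 difference was -0.81, opposite in direction to the sum. The part of these cells in this result was not tested. Spic stood at 47.3, 34.6 and 38.9 in WT and at 72.3, 107 and 92.3 in TCF-1 cKO, with no overlap and a log2 difference of 1.12 (standard error 0.26, adjusted p = 0.0211). Of the Spic counts, 96.6% to 100% in WT Pre-Tx and 69.8% to 75.8% in TCF-1 cKO Pre-Tx lay on protein-coding transcripts. The difference above is that of the gene total. The Spic call was lost in 9 of 18 alternatives and held in 2 of 6 fits with a library left out.

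**Figure D2:**
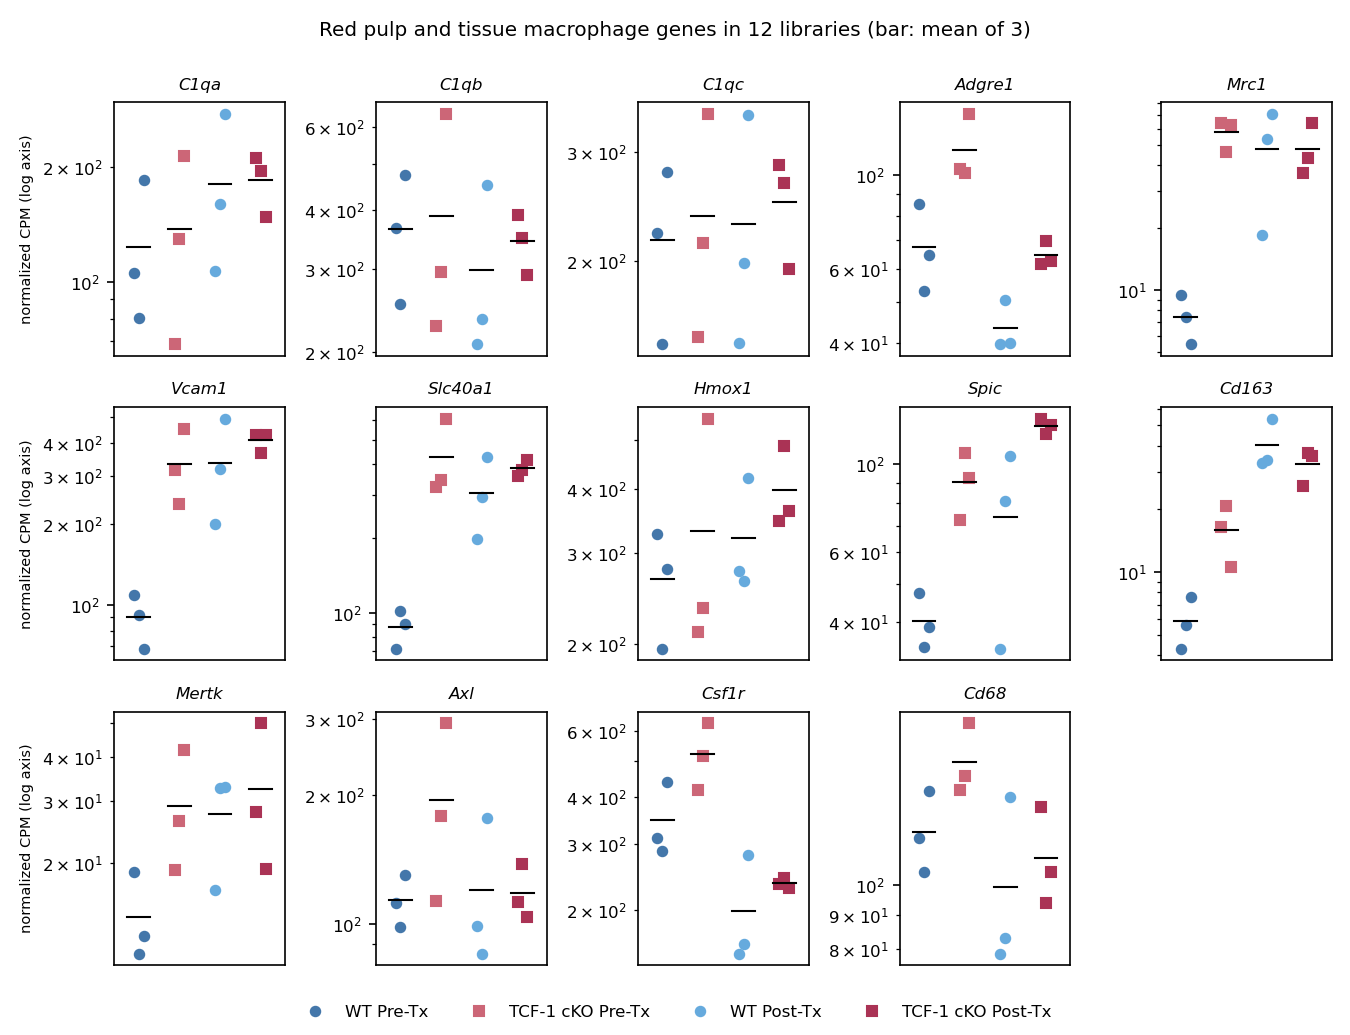
Normalized CPM (log axis, a separate scale in each panel) of the 14 macrophage genes, 1 point per library and a bar at the mean of 3 libraries, with circles for WT and squares for TCF-1 cKO. Mrc1, Vcam1, Slc40a1 and Spic separate the genotypes before transplant, and the 3 C1q genes do not.

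The C1q genes, the complement genes that tissue macrophages express at a high level, gave another picture. C1qa stood at 106, 80.4 and 185 in WT Pre-Tx and at 68.6, 130 and 215 in TCF-1 cKO Pre-Tx (adjusted p = 0.94). C1qb stood at 367, 253 and 474 and 228, 296 and 639 (adjusted p = 0.986), and C1qc at 222, 147 and 279 and 151, 214 and 345 (adjusted p = 0.931). The groups overlapped for all 3 genes. The ratio of Mrc1 to C1qa was 0.0704 ± 0.0353 (SD, n = 3) in WT Pre-Tx and 0.529 ± 0.356 in TCF-1 cKO Pre-Tx. These genes were paired after their values were seen, so the ratio restates the values above.

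The other macrophage genes did not pass before transplant. Hmox1, the heme oxygenase, stood at 328, 195 and 279 in WT and at 211, 235 and 549.6 in TCF-1 cKO, with overlap. Csf1r, the receptor for the macrophage growth factor CSF1, stood at 312, 287 and 439.5 and at 417, 516 and 629, with 1 TCF-1 cKO library inside the WT range. Axl, a receptor for dying cells, stood at 112, 98.6 and 130.4 and at 113, 178 and 294, also with overlap. Another 4 genes did not overlap between the genotypes, with every TCF-1 cKO library the higher, and still did not pass. Adgre1, which encodes the F4/80 antigen, stood at 85.3, 53.1 and 64.6 and at 103, 101 and 139.6 (adjusted p = 0.0762). Cd68, a lysosomal protein, stood at 117.3, 104.4 and 137.9 and at 138.4, 145.4 and 174.1 (adjusted p = 0.391). Cd163, the scavenger receptor for hemoglobin, stood at 4.30, 5.56 and 7.64 and at 16.4, 20.6 and 10.5 (adjusted p = 0.0874), and its WT values were below the olfactory receptor percentile. Mertk, a receptor of the same family as Axl, stood at 18.8, 11.01 and 12.4 and at 19.1, 26.3 and 42.1 (adjusted p = 0.111).

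Of the 14 monocyte and shared genes, 2 rose before transplant. Cybb, the catalytic subunit of the phagocyte NADPH oxidase, stood at 144, 228 and 89.9 in WT and at 638, 404 and 426 in TCF-1 cKO, a log2 difference of 1.66 (standard error 0.31, adjusted p = 0.0126). Itgam, the CD11b integrin chain, stood at 38.9, 28.8 and 33.5 and 103, 90.2 and 99.8, a log2 difference of 1.49 (standard error 0.25, adjusted p = 0.00904). The groups overlapped for neither gene. Cybb is also used by B cells and Itgam by natural killer cells. The 10 natural killer cell markers summed to 219 to 338 in WT Pre-Tx and 658 to 794 in TCF-1 cKO Pre-Tx without overlap, and 3 of the 10 and 4 of the 10 B cell markers were higher in TCF-1 cKO, while 6 of the 10 T cell markers were lower. Their part in these results was not tested.

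Lyz2, the lysozyme of monocytes and macrophages, stood at 2023, 3425 and 3279 in WT Pre-Tx and at 1899, 2219 and 2040 in TCF-1 cKO Pre-Tx (adjusted p = 0.116). Reads of Lyz2 and its near copy Lyz1 may be split between them, so both values are uncertain. Tyrobp, the DAP12 adaptor, stood at 508, 579.8 and 825 and at 409, 448 and 598 (adjusted p = 0.199). Fcer1g, the Fc receptor gamma chain, stood at 201, 205 and 369 and at 202, 188 and 294 (adjusted p = 0.549). Spi1 stood at 182, 221 and 226 and at 169, 173 and 227 (adjusted p = 0.523). These genes, Lyz2 included, overlapped between the genotypes, and natural killer cells also use Tyrobp and Fcer1g. Sirpa, the receptor for CD47, stood at 143, 115 and 143 and at 215, 202 and 256 without overlap (adjusted p = 0.0516). The Fc receptor Fcgr3, whose reads a near copy may share, stood at 21.3, 50.3 and 55.4 and at 80.1, 66.03 and 86.6, also without overlap (adjusted p = 0.142). The 3 genes that follow overlapped. Ly6c2, a Ly6C gene that T cells also use and that has a near copy, stood at 326, 328 and 316 and at 335, 308 and 348. The inhibitory receptor Cd300a stood at 124, 106 and 129 and at 92.6, 119.7 and 132, and Cd14, the lipopolysaccharide receptor, at 28.4, 19.7 and 9.43 and at 18.9, 15.9 and 45.7. Fcgr1, the high-affinity Fc receptor, had 1 TCF-1 cKO library inside the WT range, at 6.26, 6.21 and 10.3 in WT and at 17.6, 10.01 and 16.3 in TCF-1 cKO. Lyz1, at 2.22 to 16.6 and 0.209 to 12.7, and Cebpb, at 0.798 to 1.66 and 0.471 to 0.806, were low in both.

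Among the neutrophil genes, Ngp, a granule protein of maturing neutrophils, rose before transplant. It stood at 58.9, 118 and 149 in WT and at 300.1, 208 and 247 in TCF-1 cKO without overlap, a log2 difference of 1.15 (standard error 0.34, adjusted p = 0.0441). This call was lost in 8 of 18 alternatives and held in 1 of 6 fits with a library left out. The calprotectin gene S100a8 stood at 263, 374 and 348 and at 463, 219 and 236 (adjusted p = 0.786), with overlap. Its partner S100a9 stood at 125, 166 and 194 and at 465, 196 and 221 without overlap (adjusted p = 0.123). TCF-1 cKO Pre-Tx replicate 1 held the highest value of the 6 Pre-Tx libraries in all of the neutrophil genes. Mpo, the myeloperoxidase gene of granulocyte precursors, stood at 14.9, 26.2 and 69.03 and at 115, 28.8 and 61.99. Elane, the neutrophil elastase, stood at 4.24, 3.92 and 16.2 and at 23.98, 4.33 and 14.7. Csf3r, the receptor for G-CSF, stood at 139, 109 and 205 and at 235, 112 and 122 (adjusted p = 0.998).

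No dendritic cell gene passed before transplant. Siglech, a lectin of plasmacytoid dendritic cells, stood at 25.5, 58.9 and 61.1 in WT and at 26.97, 5.77 and 21.97 in TCF-1 cKO (adjusted p = 0.0822), with overlap. Flt3, the receptor that dendritic cell precursors need, stood at 29.7, 30.5 and 25.3 and at 44.7, 23.6 and 29.4, also with overlap. Itgax and Zbtb46 did not overlap and were higher in TCF-1 cKO without passing. Itgax, the CD11c chain, stood at 31.9, 25.6 and 46.5 and at 52.4, 53.1 and 49.9 (adjusted p = 0.278), and Zbtb46 at 4.42, 10.5 and 2.53 and at 13.6, 12.7 and 11.1 (adjusted p = 0.212). Xcr1 stood at 6.57, 3.57 and 3.95 and at 2.04, 1.78 and 7.72, and Clec9a lay at 1.23 to 4.05 and 0.0524 to 4.35, both with overlap.

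**Figure D3:**
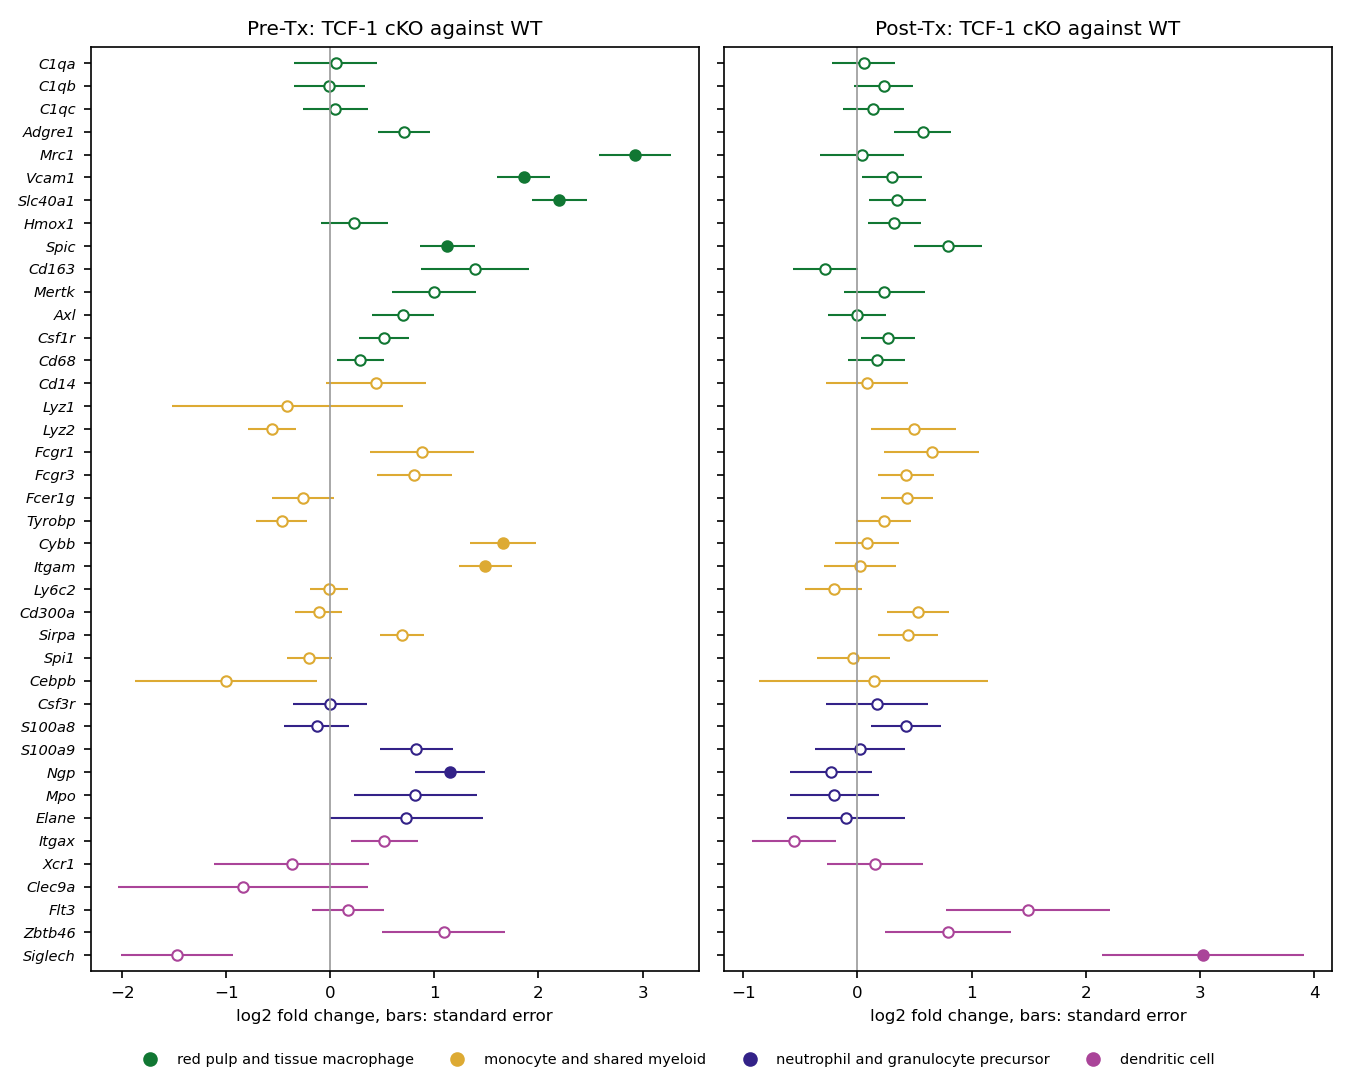
Log2 fold change of TCF-1 cKO against WT (x axis, bars for the standard error) of the 40 genes before transplant and of 38 after it, coloured by list, with filled points for an adjusted p under 0.05. Before transplant 7 points are filled, all above 0, and after it 1, that of Siglech.

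The 7 genes that rose had transcripts of 42.4% to 50.2% GC, with a median of 44.0%, and the other 33 ranged from 42.0% to 67.2%, with a median of 51.7%. Among the members of low GC that did not pass were Xcr1 (42.0%), Clec9a (44.6%), S100a8 (44.8%) and S100a9 (45.6%). The C1q transcripts held 57.4% to 59.5% and Spi1 58.7%. Over protein-coding genes with a mean of at least 10 normalized CPM, the median log2 difference was 1.03 in the lowest of 8 GC bins, 0.98 in the second and -0.41 in the highest. Over all genes tested, the lowest bin, which holds many genes of few counts, was at -0.46, the second at 0.58 and the highest at -0.48.

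Trends on GC were removed in fits added after seeing the data, in forms that gave different calls. With the trend fitted over all genes tested, which was tried first, 9 members were called higher and none lower, and Mrc1, Vcam1, Slc40a1, Cybb, Itgam and Ngp were among them. With the trend fitted over genes of at least 10 CPM, which was tried after the results of the first were seen, 4 were higher and 3 lower. Mrc1 was then at 1.92 (adjusted p = 0.00707), Slc40a1 at 1.21 (adjusted p = 0.0388), Vcam1 at 0.91 (adjusted p = 0.0439) and Itgam at 0.96 (adjusted p = 0.0322). Cybb, at 0.67 (adjusted p = 0.0509), Ngp, at 0.75 (adjusted p = 0.148), and Spic, at 0.17 (adjusted p = 0.728), did not pass. Lyz2, at -1.16 (adjusted p = 0.0133), S100a8, at -1.14 (adjusted p = 0.0339), and Siglech, at -2.14 (adjusted p = 0.0371), were the 3 called lower. With length removed as well, the form over all genes called 8 higher and none lower, 6 of the 7 among them, and in the form over genes of at least 10 CPM Mrc1 was the only member still called higher, with 3 lower. Without WT Pre-Tx replicate 1, Mrc1 was also the only member called, at 3.12, and the calls over all genes went from 2413 to 10 higher and 4 lower.

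**Figure D4:**
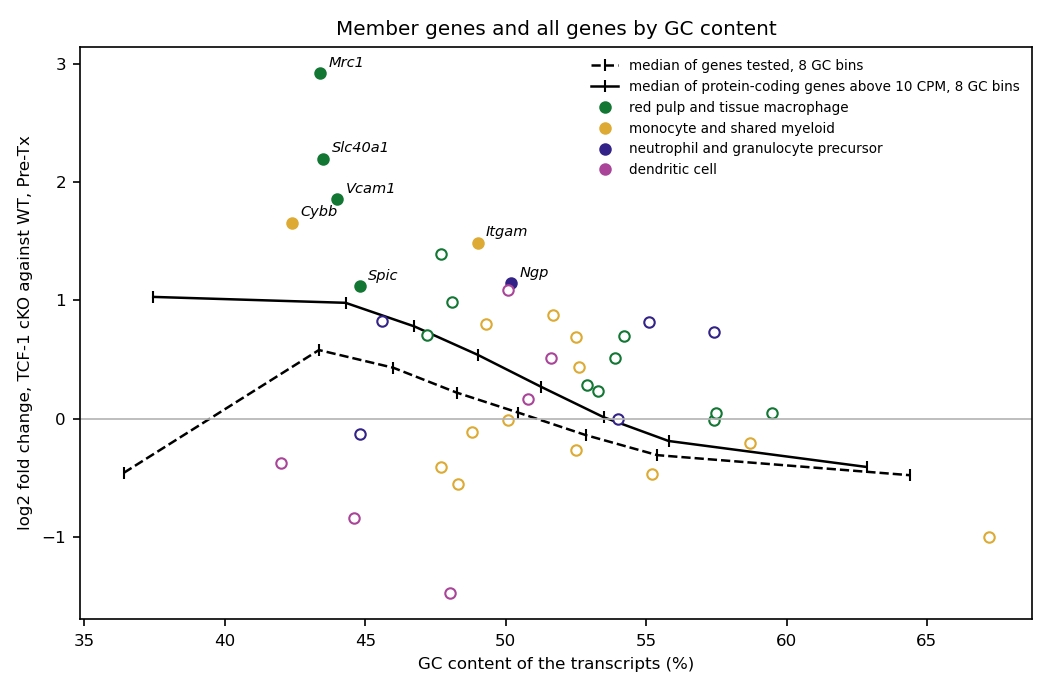
Log2 fold change of TCF-1 cKO against WT before transplant (y axis) against the GC content of the transcripts in percent (x axis) for the 40 genes, with filled points for the 7 called higher, and the medians of 8 GC bins drawn at the middle of each bin. The members called higher lie at 42.4% to 50.2% GC and above both lines.

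After transplant, 1 of the 38 members tested was higher in TCF-1 cKO than in WT and none was lower, where 3.52% of the 19287 genes tested were called higher and 3.13% lower, or 6.65% in either direction. Clec9a and Lyz1 had too few counts for the test. The median log2 difference was 0.20 over the members and 0.09 over all genes, and upper-quartile scaling moved the latter to 0.37. The other 37 had adjusted p from 0.0919 to 0.987, and 2 of them, Adgre1 and Spic, had an unadjusted p under 0.05. Siglech stood at 0.418, 0.404 and 0.227 normalized CPM in WT Post-Tx and at 2.01, 3.32 and 3.41 in TCF-1 cKO Post-Tx, without overlap. Its log2 difference was 3.03 (standard error 0.88, adjusted p = 0.0473). In TPM it lay at 0.138 to 0.281 in WT Post-Tx and 1.68 to 2.64 in TCF-1 cKO Post-Tx, in every Post-Tx library below the olfactory receptor percentile, which was itself higher in TCF-1 cKO. Of its counts, 17.0% to 31.1% in TCF-1 cKO Post-Tx and 24.8% to 49.0% in WT Post-Tx lay on protein-coding transcripts, against 77.0% to 93.2% in WT Pre-Tx. The call was lost in 11 of 18 alternatives.

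Of the macrophage genes that rose before transplant, Mrc1, Slc40a1 and Vcam1 overlapped between the Post-Tx genotypes and Spic did not. Mrc1 stood at 18.5, 53.7 and 71.01 in WT and at 36.8, 43.2 and 64.3 in TCF-1 cKO (adjusted p = 0.944), with the TCF-1 cKO values inside the WT range. Slc40a1 stood at 198, 294 and 424 and 357, 378 and 414 (adjusted p = 0.318), and Vcam1 at 199, 319 and 493 and 429, 365 and 429 (adjusted p = 0.415). WT Post-Tx replicate 1 was the lowest of the 6 for all 3 genes. Spic stood at 34.3, 81.1 and 105 in WT and at 131, 119 and 126 in TCF-1 cKO without overlap (adjusted p = 0.0919), and Adgre1 at 39.8, 50.5 and 39.9 and 61.5, 69.95 and 62.5 without overlap (adjusted p = 0.129). Of the Spic counts, 52.6% to 99.9% in WT Post-Tx and 85.5% to 95.4% in TCF-1 cKO Post-Tx lay on protein-coding transcripts. Cybb, at 49.95, 60.98 and 95.3 in WT and at 81.5, 49.5 and 83.7 in TCF-1 cKO, overlapped between the genotypes, as did Itgam, at 25.3, 22.4 and 27.3 and at 32.9, 20.7 and 22.1.

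The remaining macrophage genes overlapped between the Post-Tx genotypes. C1qa stood at 107, 161 and 277 in WT and at 212, 196 and 148 in TCF-1 cKO, C1qb at 208, 235 and 451 and at 389.7, 349 and 292, and C1qc at 147, 199 and 343 and at 286, 267 and 194. Hmox1 stood at 277, 265 and 421 and at 346, 485 and 362, and Cd68 at 78.8, 83.3 and 135 and at 130.4, 93.8 and 105. The receptors Axl, at 99.1, 85.3 and 176 and at 112, 138 and 104, and Mertk, at 16.7, 32.7 and 33.03 and at 27.9, 50.04 and 19.3, completed this list with Csf1r and Cd163. For all 3 C1q genes WT Post-Tx replicate 3 was the highest of the 6 libraries. Among the monocyte genes Sirpa stood at 67.1, 112 and 156 and at 161, 164 and 126, and Fcgr3 at 54.99, 66.6 and 97.4 and at 89.6, 95.2 and 106. Fcgr1 stood at 6.59, 12.2 and 18.2 and at 11.2, 25.7 and 20.3, and Cd14 at 15.7, 14.4 and 16.5 and at 22.1, 14.1 and 12.98. These 4 overlapped as well.

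The neutrophil genes overlapped after transplant and moved together between libraries of a group. S100a8 stood at 272, 167 and 271 in WT and at 438, 159 and 344 in TCF-1 cKO, and S100a9 at 405, 117 and 173 and at 334, 121 and 251. Ngp stood at 606, 249.5 and 297 and at 461, 162 and 359.8. Mpo stood at 124, 50.4 and 95 and at 127, 30.7 and 74.3, and Elane at 55.4, 14.3 and 32.9 and at 54.2, 7.93 and 32.7. In S100a8, S100a9, Ngp, Mpo and Elane, replicate 2 of either genotype held the lowest value of its group and replicate 1 the highest. Of the dendritic cell genes, Itgax stood at 33.9, 54.1 and 20.4 and at 33.5, 17.3 and 23.8, and Xcr1 at 9.07, 12.2 and 8.78 and at 10.1, 11.7 and 11.9, both with overlap. Zbtb46, at 4.78, 3.30 and 3.67 and at 5.33, 7.33 and 7.74, did not overlap (adjusted p = 0.314), nor did Flt3 (adjusted p = 0.159). Both were lower in WT, where the olfactory receptor percentile was lower too.

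Between the stages, day, host, graft marrow and cell state changed together, and their parts cannot be told apart. In WT, 5 of the 40 genes were higher after transplant and 12 lower, where 11.6% of the 21434 genes tested were called higher and 10.4% lower (22.0% in either direction). The median log2 change was -0.28 over the members and -0.41 over all genes. Log2 TPM split the calls into 9 higher and 9 lower, the fit with no filter on low counts into 10 and 10, and the first GC fit into 8 and 8. In TCF-1 cKO, 1 was higher and 14 lower, where 14.2% of all genes were called higher and 12.5% lower (26.7% in either direction). The medians were -0.39 over the members and 0.36 over all genes, and log2 TPM split the calls into 7 higher and 8 lower. Upper-quartile scaling moved the median of all genes to -0.71 in WT and to 0.73 in TCF-1 cKO.

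Among the members, the falls with transplant were mostly in the monocyte list, with 8 of its 14 genes in either genotype. Of 12 other monocyte genes listed beside the members, 3 were called higher and 3 lower in WT, and 2 and 3 in TCF-1 cKO. Over all genes these shares were 11.6% and 10.4% in WT, and 14.2% and 12.5% in TCF-1 cKO. Lyz2 stood at 339, 142 and 168 in WT Post-Tx and at 479, 146 and 287 in TCF-1 cKO Post-Tx, every value below the lowest Pre-Tx value of 1899. Its log2 change was -3.75 (standard error 0.40, adjusted p = 3.63e-06) in WT and -2.76 (standard error 0.38, adjusted p = 7.13e-05) in TCF-1 cKO. Spi1 stood at 28.2, 18.7 and 30.1 and 29.6, 26.7 and 18.6 after transplant, and changed by -3.03 (standard error 0.27, adjusted p = 5.06e-07) in WT and -2.93 (standard error 0.27, adjusted p = 7.77e-07) in TCF-1 cKO. Spi1 is also used by B cells, whose summed markers were lower after transplant in every library. Tyrobp stood at 96.7, 79.7 and 149 and 129, 127 and 120, and changed by -2.56 (standard error 0.27, adjusted p = 2.91e-06) and -1.95 (standard error 0.26, adjusted p = 4.92e-05). Csf3r stood at 25.2, 5.62 and 16.2 and 20.9, 14.1 and 17.8, and changed by -3.27 (standard error 0.45, adjusted p = 5.81e-05) and -3.15 (standard error 0.45, adjusted p = 9.6e-05). For Spi1, Tyrobp and Csf3r too, all 6 Post-Tx values lay below all 6 Pre-Tx values. These 4 genes kept their call in all alternatives run in both genotypes.

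Other members fell in both genotypes. Cybb changed by -1.16 in WT and -2.77 in TCF-1 cKO on the log2 scale, Cd300a by -1.75 and -1.17, Csf1r by -0.81 and -1.15, and Ly6c2 by -0.74 and -0.99. Cd300a stood at 33.3, 30.6 and 42.7 in WT Post-Tx and at 56.95, 57.5 and 38.6 in TCF-1 cKO Post-Tx, Csf1r at 153, 162 and 279.8 and at 235, 242 and 228, Ly6c2 at 198, 187 and 195 and at 228, 129 and 144, and Fcer1g at 123, 97.7 and 159.7 and at 167, 183 and 159. The WT calls of Csf1r and Ly6c2 were each lost in 11 of 24 alternatives, and that of Cybb in 7. Lyz1 changed by -6.09 and -4.78, from a Pre-Tx range of 0.209 to 16.6 normalized CPM, so that few counts carry it. Flt3 stood at 1.87, 3.13 and 0.711 in WT Post-Tx and 4.49, 8.46 and 3.58 in TCF-1 cKO Post-Tx. It changed by -3.90 (standard error 0.54, adjusted p = 5.61e-05) and -2.56 (standard error 0.51, adjusted p = 0.00176). Of the Flt3 counts, 0% to 21.3% in WT Post-Tx and 16.4% to 28.3% in TCF-1 cKO Post-Tx lay on protein-coding transcripts. Before transplant these shares were 62.8% to 89.0% in WT and 84.7% to 95.9% in TCF-1 cKO. Siglech changed by -7.09 (standard error 0.67, adjusted p = 8.81e-07) and -2.64 (standard error 0.54, adjusted p = 0.00224), and both dendritic cell genes ended at or below the olfactory receptor percentile. Fcer1g, in WT (-1.03), and Adgre1 (-0.83), Itgam (-1.95) and Itgax (-1.06), in TCF-1 cKO, were called lower in 1 genotype, and a call in 1 genotype does not show a difference between them. The calls of Itgax and Adgre1 were lost in 12 and 10 of 24 alternatives, that of Fcer1g in 4 and that of Itgam in 1.

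**Figure D5:**
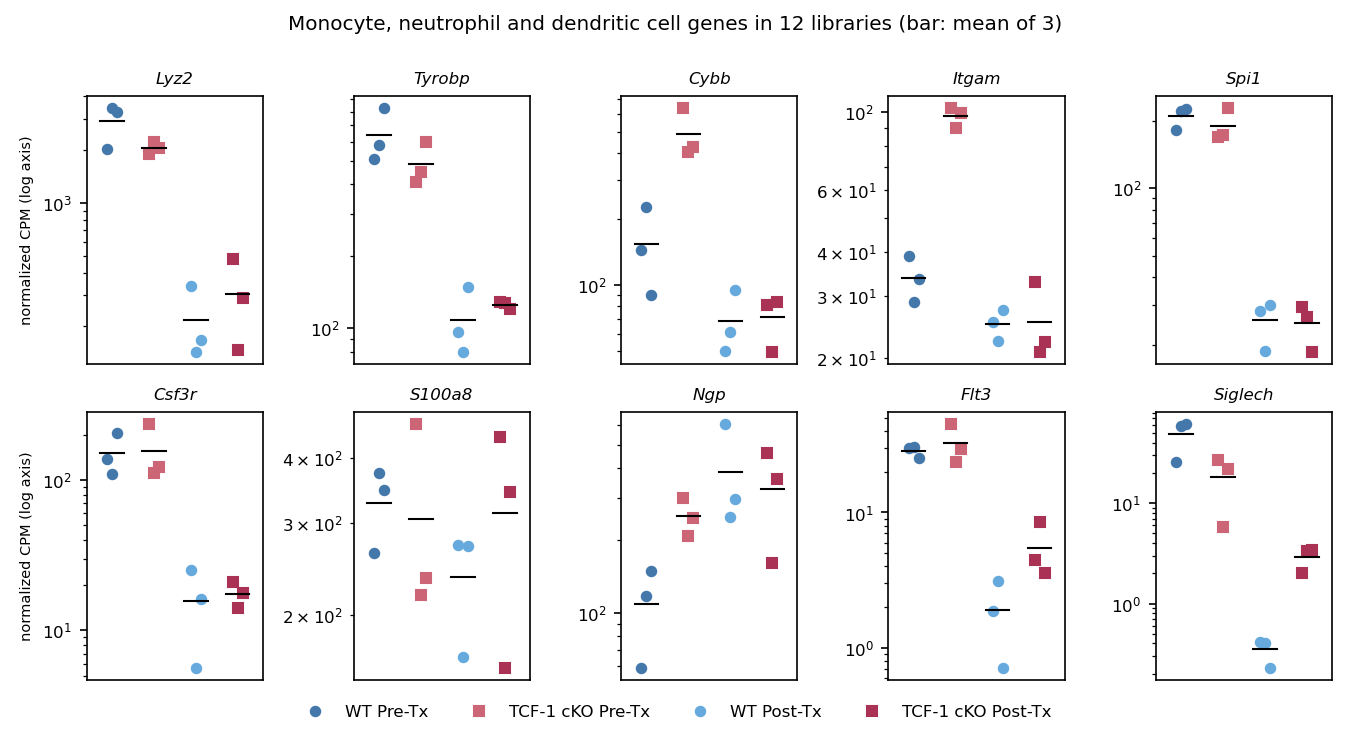
Normalized CPM (log axis, a separate scale in each panel) of 10 monocyte, neutrophil and dendritic cell genes, 1 point per library and a bar at the mean of 3, with circles for WT and squares for TCF-1 cKO. Lyz2, Tyrobp, Spi1, Csf3r, Flt3 and Siglech lie lower in all 6 Post-Tx libraries than in all 6 Pre-Tx libraries.

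The rises with transplant were in macrophage genes and 1 neutrophil gene. Cd163 stood at 4.30, 5.56 and 7.64 in WT Pre-Tx and at 33.03, 34.1 and 53.95 in WT Post-Tx, a log2 change of 2.79 (standard error 0.39, adjusted p = 6.35e-05). In TCF-1 cKO it went from 16.4, 20.6 and 10.5 to 25.7, 36.97 and 35.9, a change of 1.05 (standard error 0.37, adjusted p = 0.0431) that was lost in 13 of 24 alternatives. In WT, Mrc1 changed by 2.68 (standard error 0.43, adjusted p = 0.000226), Vcam1 by 1.91 (standard error 0.31, adjusted p = 0.000275) and Slc40a1 by 1.80 (standard error 0.29, adjusted p = 0.000283). Ngp stood at 606, 249.5 and 297 in WT Post-Tx, a change of 1.82 (standard error 0.40, adjusted p = 0.00338) in WT. The WT Pre-Tx libraries that set the low end of these changes are the same 3 that entered the Pre-Tx comparison of genotypes, so the comparisons share them. Changes in WT also differed by GC content over protein-coding genes with a mean of at least 10 normalized CPM. Their median was 0.84 in the lowest of 8 GC bins, 0.90 in the second and -0.29 in the highest. With the GC trend of genes of at least 10 CPM removed, Cd163, Mrc1, Vcam1 and Ngp stayed called and Slc40a1 did not. The C1q genes and Hmox1 did not pass in either genotype in the main fit. C1qa was called higher after transplant in WT in both GC fits over all genes. In TCF-1 cKO it was called higher in both GC fits over genes of at least 10 CPM.

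The interaction asks whether the genotype difference after transplant differs from that before it. Of the 40 genes 7 passed, 1 higher and 6 lower, where 17.1% of all genes were called higher and 11.5% lower (28.6% in either direction), so the share of members called was not above that of all genes. Mrc1, at -2.94 (standard error 0.58, adjusted p = 0.0036), and Slc40a1, at -1.94 (standard error 0.40, adjusted p = 0.00473), had the largest negative values, and Siglech had the positive one, at 4.45 (standard error 0.77, adjusted p = 0.00246). Cd163, Vcam1, Cybb and Itgam were the others. The median was -0.27 over the members and 0.37 over all genes, and upper-quartile scaling moved the latter to 1.05 and split the member calls into 5 higher and 2 lower. The GC fit over all genes gave 1 higher and 13 lower, with all 7 among them. That over genes of at least 10 CPM gave 6 higher and 1 lower, and Mrc1, at -1.82 (adjusted p = 0.0137), and Siglech, at 5.44 (adjusted p = 0.00142), were the genes it shared with the 7.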

How the data were processed

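RNA was taken from sorted splenic cells in 12 libraries, amplified with a SMARTseq HT kit and sequenced as paired ends. The estimated count values were deposited by the authors as kallisto 0.46.2 gave them per transcript, with no normalization or filter. The TPM values were deposited by the authors beside them, scaled by kallisto for effective length and summing to 1000000 per library. The labels name mm9, and no source used here gives the transcript set. Of 117497 transcripts, 116428 (99.09%) matched a GENCODE M21 entry (GRCm38) once versions were dropped. Estimated counts were then summed per gene and rounded.

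Scaling by TMM, the low-count filter and the quasi-likelihood test came from edgeR 4.0.16 in R 4.3.3, with Benjamini-Hochberg adjustment over all genes tested. The 6 libraries of a stage entered each genotype comparison, and all 12 the others. The standard error is the log2 fold change over the square root of F. Alternatives used limma 3.58.1, DESeq2 1.42.0, other scaling, no filter, a replicate block, libraries left out, and GC and length trends (lowess span 0.3) through offsets. The GC fits were added after seeing the data, and the forms fitted over genes of at least 10 CPM after seeing the results of the forms fitted over all genes. The scripts were tested on simulated data. The members, lists and tests were chosen with earlier results of these data known. Every member is accounted for, with full values for members called in a genotype comparison or the interaction and for those of at least 10 normalized CPM. Figures were drawn with matplotlib 3.10.9.

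Pairing by replicate number was checked through the correlation of residuals between same-numbered libraries, which ranged from -0.175 to 0.248, and the libraries were not treated as paired. Replicates of a group had Pearson correlations of log2 CPM from 0.869 to 0.955. Counts carry counting error, and with 3 libraries per group changes of modest size can be missed.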

Additional observations from a re-analysis of the deposited data

Results flagged for a closer look

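In 7 of the 40 genes the genotype difference after transplant differed from that before it, by the interaction term of the 12-library fit (edgeR quasi-likelihood test). Over all genes 28.6% were called in this interaction, above the members' share, so the count is no result about the members. The value is the log2 difference of TCF-1 cKO and WT after transplant minus that before it. Mrc1 was at -2.94 (standard error 0.58, adjusted p = 0.0036), Slc40a1 at -1.94 (standard error 0.40, adjusted p = 0.00473), Cd163 at -1.74 (standard error 0.52, adjusted p = 0.0226) and Vcam1 at -1.63 (standard error 0.43, adjusted p = 0.0133) among the macrophage genes. Cybb was at -1.61 (standard error 0.47, adjusted p = 0.0202) and Itgam at -1.52 (standard error 0.38, adjusted p = 0.0104) among the monocyte genes. Siglech was at 4.45 (standard error 0.77, adjusted p = 0.00246), with its Post-Tx values below the background level of olfactory receptor genes. With the GC trend of genes of at least 10 CPM removed, Slc40a1 was at -0.79 (adjusted p = 0.143), Cd163 at -0.69 (adjusted p = 0.34), Vcam1 at -0.50 (adjusted p = 0.272), Cybb at -0.67 (adjusted p = 0.107) and Itgam at -0.63 (adjusted p = 0.155), and none of these 5 passed.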

How the results depend on the processing

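Of 47 log2 fold changes of members called in a comparison, 46 kept their direction in every alternative run. Over 1072 alternatives, 931 kept the call, 140 lost it and 1 turned the direction, Itgam in the interaction with log2(TPM + 1) values, at 0.05 (adjusted p = 0.934). Before transplant, 11 members were called with no filter on low counts, 12 by the DESeq2 Wald test and 4 with GC and length trends of genes of at least 10 CPM removed, against 7, and with 1 library left out 1 to 6. After transplant, where 1 was called, limma voom and log2(TPM + 1) gave 2. The fit with no filter gave 0, and both GC fits over all genes gave 0. With GC and length trends of genes of at least 10 CPM removed 2 were called, Fcer1g and Tyrobp. With only the GC trend of these genes removed, Fcer1g was the 1 member called. Siglech was called in neither of these fits. Leaving out 1 library gave 0 to 1 (Siglech passed there only without WT Post-Tx replicate 2). In the interaction, 11 were called with no filter, 2 with log2(TPM + 1), 14 with the GC trend over all genes removed and 13 with length as well, against 7, and 5 to 10 with 1 library left out. The changes with transplant ranged over 14 to 18 members in WT and 11 to 14 in TCF-1 cKO with 1 library left out. The causes of these shifts were not tested. The GC alternatives were chosen after seeing the data, and no single one of them was taken as the better account of the calls.

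With the replicate block, 8 members were called before transplant, 1 after it, 18 and 12 in the changes with transplant in WT and TCF-1 cKO, and 7 in the interaction. The numbers did not pair the libraries, and the block moved no count of member calls by over 1.5 times. With upper-quartile scaling, 636 genes were called higher and 2070 lower before transplant, against 1451 and 962, and 687 and 111 after it, against 679 and 604. Counts over all genes moved more than those of members. After transplant they were 40 higher and 97 lower with all 12 libraries in one fit, 1906 and 1879 by DESeq2, 1552 and 1298 by limma voom, 1132 and 1073 with no filter, 1462 and 1795 with the replicate block, and 118 and 305 or 117 and 68 in the GC fits (137 and 408 or 114 and 70 with length). Without TCF-1 cKO Post-Tx replicate 2 they were 3 and 3, without WT Post-Tx replicate 1 14 and 50, and without WT Post-Tx replicate 2 1922 and 1287. Before transplant they were 2003 and 1662 with all 12 libraries, 2360 and 1706 by DESeq2, and 245 and 1290 in the second fit with GC and length, and 340 and 177 without TCF-1 cKO Pre-Tx replicate 1. The background percentages given with the member counts therefore hold for the fits reported. Between the genotypes, no difference of Cebpb, Clec9a, Lyz1 or Xcr1, which lay at or below the olfactory receptor percentile in 8 to 12 libraries, passed in the fits reported, and Clec9a and Lyz1 could not be tested after transplant.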

Other observations

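Of 53 other myeloid genes listed beside the members, 4 of 12 monocyte genes were higher in TCF-1 cKO before transplant and none lower, where 8.52% of all genes were called higher and 5.65% lower. Chil3, a chitinase-like secreted protein, changed by 2.47 (standard error 0.41, adjusted p = 0.00857), and Ms4a4c, a membrane protein of monocytes, by 1.64 (standard error 0.36, adjusted p = 0.0171). Ccr2, the receptor that brings monocytes to tissue and that activated T cells and natural killer cells also use, changed by 1.33 (standard error 0.37, adjusted p = 0.0385), and the protease Ctss by 0.88 (standard error 0.24, adjusted p = 0.0361). With the GC trend of genes of at least 10 CPM removed, Ms4a4c passed, at 1.01 (adjusted p = 0.0347), and Chil3, at 1.46 (adjusted p = 0.057), did not. Of 15 macrophage genes 2 were higher, the scavenger receptor Cd36 at 1.45 (standard error 0.36, adjusted p = 0.0245) and the integrin chain Itgad at 1.11 (standard error 0.31, adjusted p = 0.0384), of 14 dendritic cell genes 1, Tcf4 at 1.01 (standard error 0.22, adjusted p = 0.0174), and of 12 neutrophil genes 0. The transcripts of Ccr2 and Cd36 held 39.1% GC, those of Ctss 45.9%, of Tcf4 49.2% and of Itgad 53.2%. In the GC bins of these values, the median log2 difference of protein-coding genes with a mean of at least 10 normalized CPM was 1.03, 0.78, 0.54 and 0.01. Of the 10 B cell markers 4 were higher in the same comparison, and the part of B cells in these calls was not tested. After transplant 1 macrophage gene and 3 dendritic cell genes of the 53 had too few counts for the test. Of those tested 1 passed, Ctsg, the cathepsin of granulocyte precursors, at 2.09 (standard error 0.55, adjusted p = 0.0377). Over all genes 3.52% were called higher and 3.13% lower.

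With transplant, 8 of the 14 other dendritic cell genes fell and 1 rose in WT, and 11 fell and 1 rose in TCF-1 cKO. In WT and TCF-1 cKO, 10.4% and 12.5% of all genes were called lower, and 11.6% and 14.2% higher. All 10 B cell markers fell as well, with a median log2 change of -7.07 in WT and -6.85 in TCF-1 cKO, and their part in the falls was not tested. Ly6d, which plasmacytoid dendritic cells and B cells use, stood at 2343, 2635 and 2755 normalized CPM in WT Pre-Tx and at 1.61, 1.01 and 0.796 in WT Post-Tx. Irf8, a factor of dendritic cells and B cells, changed by -2.12 (standard error 0.27, adjusted p = 2.45e-05) in WT and -2.17 (standard error 0.27, adjusted p = 2.39e-05) in TCF-1 cKO, and Wdfy4, which cross-presenting dendritic cells and B cells use, by -5.13 (standard error 0.56, adjusted p = 4.35e-06) and -4.40 (standard error 0.54, adjusted p = 1.88e-05). Of the 15 other macrophage genes, 5 rose and 3 fell in WT, and 2 rose and 3 fell in TCF-1 cKO. Over all genes 11.6% were called higher and 10.4% lower in WT, and 14.2% and 12.5% in TCF-1 cKO. Siglec1, the sialoadhesin of marginal metallophilic macrophages, rose, by 2.33 (standard error 0.54, adjusted p = 0.00474) and 1.97 (standard error 0.53, adjusted p = 0.0127). Maf, a transcription factor that macrophages and T cells use, rose by 2.61 (standard error 0.35, adjusted p = 3.81e-05) and 2.53 (standard error 0.35, adjusted p = 5.93e-05). Apoe, a lipid carrier of macrophages, changed by -2.22 (standard error 0.31, adjusted p = 5.89e-05) and -2.72 (standard error 0.31, adjusted p = 1.01e-05). The summed markers of mast cells and basophils were 60.4 to 287 normalized CPM in WT Post-Tx and 400.1 to 463 in TCF-1 cKO Post-Tx, and those of erythroid cells 818 to 1353 and 1292 to 4852.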
